A study of Rattus norvegicus with 30 samples.

Results

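Some transcripts separated the 2 lines that carried the same huntingtin construct, before induction and throughout it, and these line-variable transcripts are described here. PC12 cells come from a rat phaeochromocytoma, a tumour of the adrenal medulla, and make and store catecholamines. The lines expressed huntingtin exon 1 fused to Green Fluorescent Protein under a doxycycline-inducible promoter, with a glutamine repeat of 74 (Q74) or 23 (Q23) residues. A repeat of the longer kind causes Huntington disease, and one of the shorter kind lies in the normal range. Stably transfected lines carry the construct at their own insertion site and have been selected and grown apart, so lines of one construct can differ from each other before any inducer is given.

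Expression was measured on 30 Illumina rat arrays with 22521 probes each. Q74 lines 4 and 6 and Q23 lines 1 and 5 were studied uninduced (day 0) and after 1 and 5 days with 1 μg/ml doxycycline, each time with 2 RNA isolations per line (24 arrays). PC12 cells without a construct were kept under the same conditions and sampled on the same days (6 arrays), and all cultures grew in medium with G418 and hygromycin. Each construct is therefore represented by 2 lines, and PC12 was taken as 1 culture, although the labels do not say whether its isolations came from separate cultures. The values are normalized signals on what appears to be a natural log scale (lowest 3.91, highest 11.1), where a difference of 0.7 is a ratio of 2.01 in bright probes and where the change of dim probes is understated. Over all probes, paired isolations correlated at 0.992 to 0.997. Mean signal was 5.57 to 5.58 on the 24 arrays of the lines and 5.51 to 5.52 on the PC12 arrays, an offset that is small against 0.7.

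After the RNA isolations were averaged, a probe was taken as line-variable if the 2 lines of a construct differed by at least 0.7 on each of the 3 days, in the same direction. This gave 120 of the 22521 probes (0.533%). The Q74 lines differed in 110 probes (0.488%), of which 61 were higher in line 4 and 49 in line 6. The Q23 lines differed in 15 probes (0.0666%), of which 9 were higher in line 1 and 6 in line 5. On both lists stood 5 probes, which is 4.55% of the Q74 list and 33.3% of the Q23 list. Among the Q74 probes, 2 had identical values on all arrays, so that 109 gave distinct values. The probe identifiers could not be paired with genes or sequences here, so that the probes are described by their values. The Q23 list was the less stable one, since RNA isolation 1 alone gave 131 probes for Q74 and 6 for Q23, isolation 2 alone gave 109 and 22, and 67 and 5 passed in each isolation. Since all of these probes were chosen by their differences between lines, these differences are given without a test.

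The levels just inside and just outside the limit lay close together for Q74. The smallest of the 3 daily differences was 0.701, 0.703 and 0.704 in the 3 Q74 probes just inside, and 0.698, 0.697 and 0.695 in those just outside. For Q23 a gap separated them, with 0.718, 0.729 and 0.745 inside against 0.655, 0.646 and 0.640 outside. On single days, 232, 225 and 283 probes differed by 0.7 between the Q74 lines on days 0, 1 and 5, against 19, 17 and 17 between the Q23 lines. Of the 417 probes that passed on any day in Q74, 110 passed on all 3 days, whereas in Q23 it was 15 of 22.

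The sizes of the differences are given as a description, since the limit of 0.7 truncates both lists. The mean difference over the 3 days had a median of 0.94 (2.57-fold) over the 110 Q74 probes, with 8 probes above 2, 41 between 1 and 2 and 61 below 1. In the 15 Q23 probes the median was 0.87 (2.39-fold), the largest was 1.11 (3.05-fold), and 13 were below 1. The RNA isolations of the 2 lines did not overlap on any day in any of the 110 Q74 and 15 Q23 probes. The selection made this likely, since it used the means of these isolations. The median SD between RNA isolations of these probes was 0.115 in Q74 and 0.119 in Q23.

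The probe with the largest difference of all, ILMN_1360802, was high in Q74 line 6 alone. In Q74 line 4 its 2 isolations read 4.96 and 4.89 on day 0, 4.94 and 4.89 on day 1, and 4.98 and 4.86 on day 5. In Q74 line 6 they read 8.10 and 8.40, 8.13 and 8.35, and 8.36 and 8.50 on the same days. The Q23 lines lay between 4.54 and 4.78, and PC12 between 4.56 and 4.75. The Q74 lines differed by 3.38 in size (29.5-fold on this scale, which understates the change where one line is so dim), and every other culture sat close to the median probe of its arrays. In bulk RNA a transcript that fewer cells carry and one that each cell carries less of cannot be told apart.

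ILMN_1349449 showed the opposite shape, a low level in Q74 line 6 alone. It read 9.01 and 9.04, 9.15 and 9.09, and 8.79 and 8.64 in Q74 line 4 on days 0, 1 and 5, against 6.34 and 5.42, 6.41 and 5.57, and 6.52 and 5.71 in Q74 line 6. Q23 line 1 lay between 7.82 and 8.32, Q23 line 5 between 8.54 and 8.72, and PC12 between 8.70 and 9.11. The Q74 lines differed by 2.96 (19.3-fold). Isolation 1 of Q74 line 6 exceeded isolation 2 by 0.921, 0.838 and 0.802 on days 0, 1 and 5, so that isolation 2 was the lower one on every day, and both lay below every other culture.

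ILMN_1357041 was high in Q74 line 4, and was the only one of the 4 probes shown here to stand on both lists. Q74 line 4 read 7.37 and 7.43, 7.41 and 7.42, and 8.95 and 9.05, against 5.33 and 4.94, 5.30 and 4.94, and 5.70 and 4.98 in Q74 line 6. Q23 line 1 lay between 5.59 and 5.80, against 4.77 to 4.95 in Q23 line 5, and PC12 read 4.88 to 5.08. The Q74 lines differed by 2.74 and the Q23 lines by 0.84 on average.

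ILMN_1376130 was higher in Q74 line 6 and moved down in both Q74 lines with induction. It read 6.57 and 6.87, 6.50 and 6.65, and 5.57 and 5.61 in Q74 line 4, against 8.50 and 8.47, 8.26 and 8.27, and 7.66 and 7.53 in Q74 line 6. Q23 line 1 lay between 5.82 and 6.17 and Q23 line 5 between 6.29 and 6.57. The isolations of PC12 stood apart for this probe, with 6.92, 7.11 and 7.02 in isolation 1 and 8.18, 7.90 and 7.90 in isolation 2, so that its PC12 level is not settled.

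**Figure D1:**
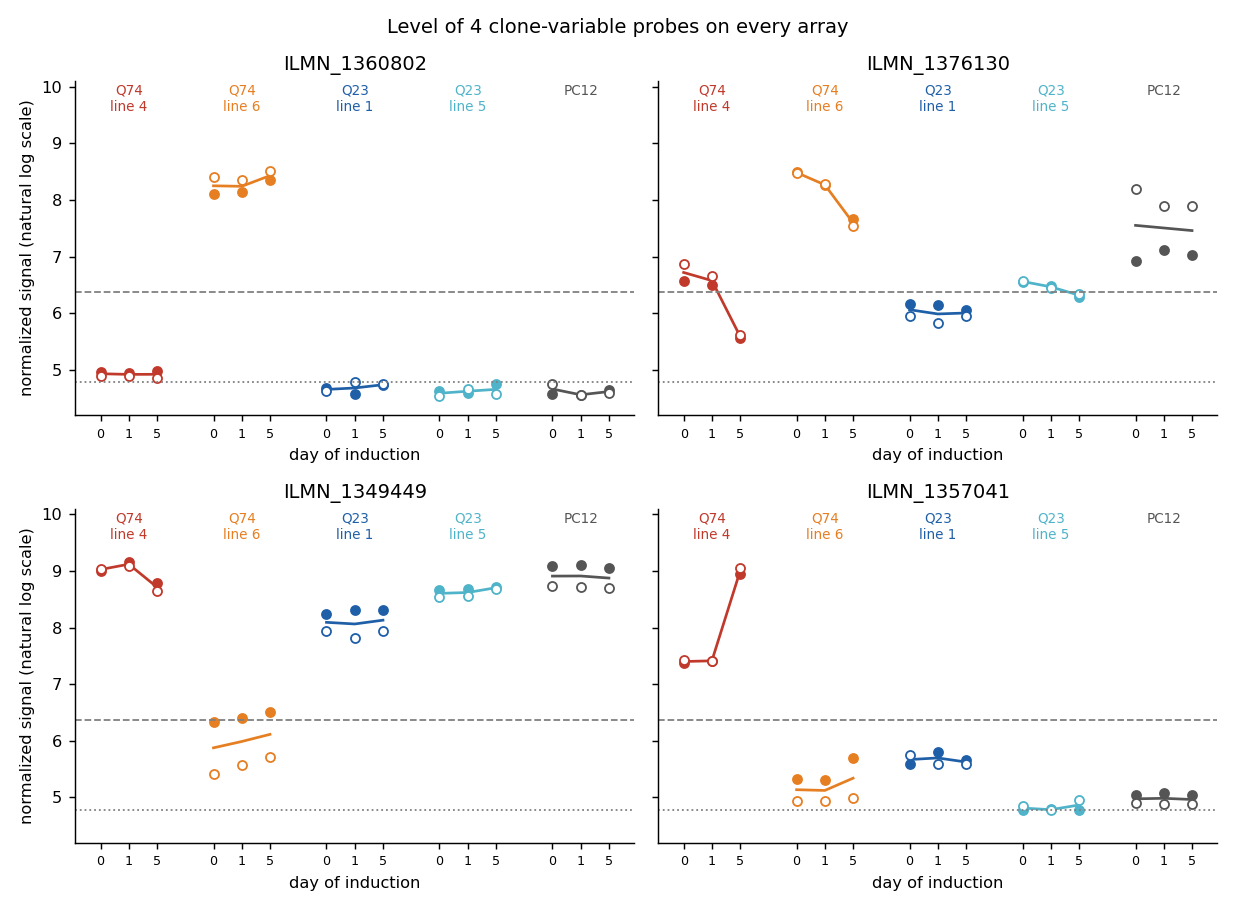
Normalized signal (natural log scale) of 4 line-variable probes on all 30 arrays, by culture and day of induction; filled and open circles are RNA isolations 1 and 2, lines join their means, and the dotted and dashed lines are the mean median and mean upper quartile of all probes in the lines with a construct. ILMN_1360802 is high in Q74 line 6 alone (8.10 to 8.50), ILMN_1349449 is low there alone (5.42 to 6.52), and ILMN_1357041 reaches 8.95 and 9.05 in Q74 line 4 on day 5.

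To see which of the 2 lines departed, each was set against PC12. A line was said to depart if it lay at least 0.7 from PC12 on every day while its partner lay within 0.35 of PC12 on average. Against PC12 alone, 3.43% of all probes passed the limit of 0.7 on all days in Q74 line 4, 4.05% in Q74 line 6, 3.96% in Q23 line 1 and 3.73% in Q23 line 5, mostly upwards. The upward share of these calls was 80.6% to 86.6% in the 4 lines, and 72.7% to 78% after quantile normalization (in Q23 line 1 it was 83.4% as deposited and 73.3% after it). Of the line-variable probes, 41 of 110 (37.3%) did so in Q74 line 4 and 39 of 110 (35.5%) in Q74 line 6. In Q23 line 1 it was 9 of 15 (60%) and in Q23 line 5 it was 7 of 15 (46.7%). In Q74 line 4, 31 were higher and 10 lower than PC12, against 2.86% and 0.577% of all probes, and in Q74 line 6 it was 23 and 16, against 3.26% and 0.786%. In Q23 line 1, 7 were higher and 2 lower, against 3.30% and 0.657%, and in Q23 line 5 it was 4 and 3, against 3.23% and 0.502%. Probes with a wide spread between lines are bound to lie far from PC12 in at least one line more often than others, so that these shares carry no test.

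Both Q74 lines departed from PC12 about equally often. Most departures were upward, but so were those of all probes. Of all probes beyond 0.7 from PC12 on every day, 83.2% lay above it in Q74 line 4 and 80.6% in Q74 line 6. Line 4 departed alone in 21 of the 110 probes, with 16 above and 5 below PC12. Line 6 departed alone in 18, with 11 above and 7 below. Both lines lay beyond 0.7 on the same side of PC12 in 11 probes, 8 of them above. In the other 60 neither pattern was met, and in 44 of these PC12 lay between the lines. Over all 110 probes, PC12 lay between the Q74 lines in 56, below both in 38 and above both in 16.

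Against the Q23 lines, which played no part in choosing the Q74 probes, line 6 was the one that departed more often. Measured from the mean of the Q23 lines, line 4 departed alone in 13 probes and line 6 in 26, both departed in 5, and 66 were intermediate. Of the 21 probes in which line 4 departed alone from PC12, 7 did so from the Q23 mean as well, and of the 18 for line 6, 6 did, so that most of these probes changed class with the reference. Line 4 was nearer to the Q23 mean in 81 of 110 probes and line 6 in 29, with median distances of 0.311 for line 4 and 0.703 for line 6. From PC12 the median distances were 0.635 for line 4 and 0.554 for line 6, and line 4 was nearer in 49 and line 6 in 61. Both Q23 lines lay between the Q74 lines in 61 probes, below both in 19, above both in 14, and in other orders in 16.

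**Figure D2:**
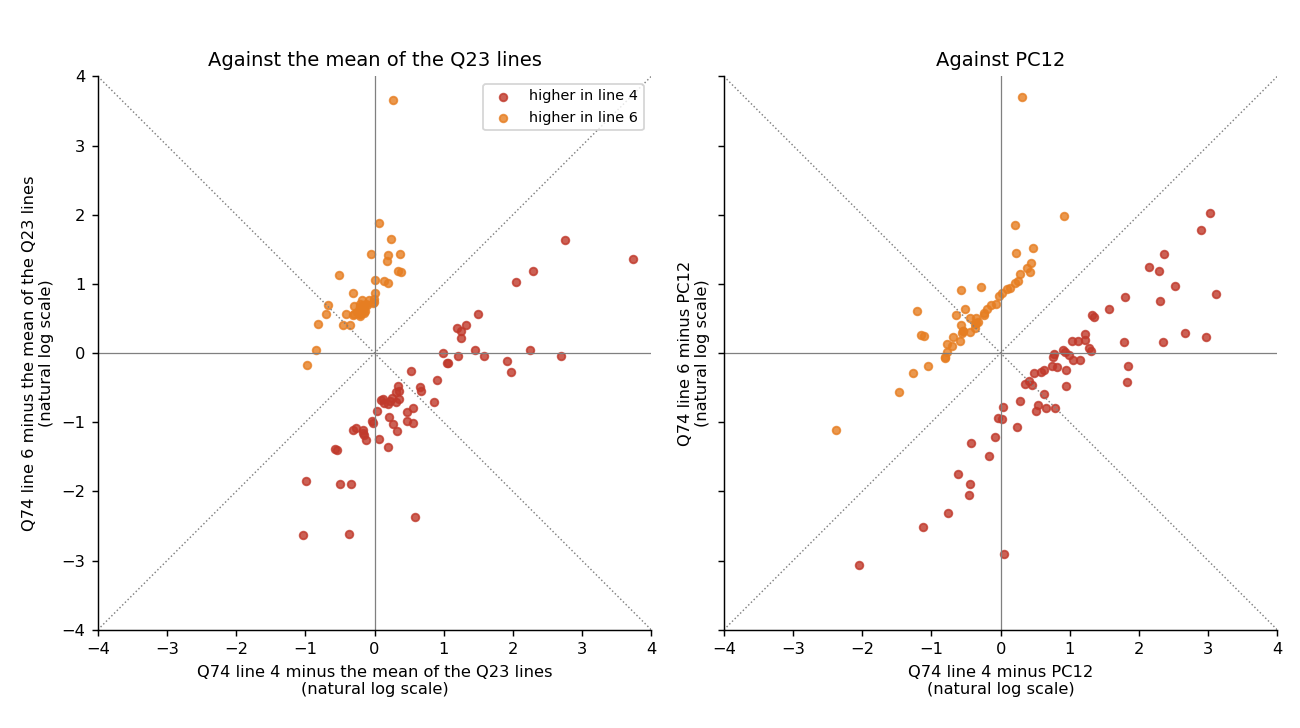
Mean level over the 3 days of Q74 line 4 (x axis) and Q74 line 6 (y axis) in the 110 Q74 probes, relative to the mean of the Q23 lines (left) and to PC12 (right), natural log scale; each point is a probe, and the dotted diagonals mark equal distance. On the left, line 4 lies nearer to zero in 81 probes; on the right, line 4 lies nearer in 49 and line 6 in 61.

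The same order appeared when all pairs of cultures were counted with the limit of 0.7 on all days. Q74 line 4 differed from Q74 line 6 in 110 probes, from Q23 line 1 in 53 (44 higher) and from Q23 line 5 in 56 (42 higher). Q74 line 6 differed from Q23 line 1 in 133 (54 higher) and from Q23 line 5 in 103 (36 higher). The Q23 lines differed from each other in 15. By this count Q74 line 4 was closer to either Q23 line than to Q74 line 6. RNA isolations 1 and 2 of one culture differed to this extent in 1 probe in each of Q74 line 4, Q74 line 6 and Q23 line 1, in 0 in Q23 line 5 and in 6 in PC12. Each line against PC12 gave 773 to 912 probes.

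The count of on-off differences depended on where the limits were set. A line was called at the floor if a probe lay under the median of all probes on every day (limits of 4.76 to 4.80 in the lines), and on if it lay above the upper quartile on every day (6.34 to 6.39). The files hold no detection p-values, so these limits are positions among the probes and not calls of presence. Of the 110 Q74 probes, 2 were on-off, 35 were graded with both lines on, 36 were on in one line and in between in the other, 9 were at the floor in one line and in between in the other, and 28 were in between in both. Of the 15 Q23 probes, 0 were on-off, 6 were graded, 4 were on in one line only, and 5 were in between in both. With on set above the 60th percentile in place of the upper quartile, 11 Q74 probes were on-off and 76 graded, and 13 Q23 probes were graded. Among all probes, both lines were on in 23% for Q74 and in 24.1% for Q23.

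Both on-off probes were on in Q74 line 4. The larger of them averaged 6.58 in Q74 line 4, against 4.38 in Q74 line 6, 4.35 in Q23 line 1, 4.31 in Q23 line 5 and 4.22 in PC12. The other averaged 6.59 in Q74 line 4, against 4.56, 4.62, 4.72 and 4.74 in the same order. Their levels across the 15 combinations of culture and day correlated at 0.986, and in both Q74 line 4 stood apart from every other culture. ILMN_1360802, whose low line averaged 4.92, just missed the floor. Line-variable probes were bright on the whole, with a median level of 6.26 for Q74 and 6.30 for Q23 against 4.79 for all probes. Of the 110, 106 were brighter than the median probe, as were 15 of the 15. Differences of dim probes are understated on this scale, so the rule itself favours bright probes.

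**Figure D3:**
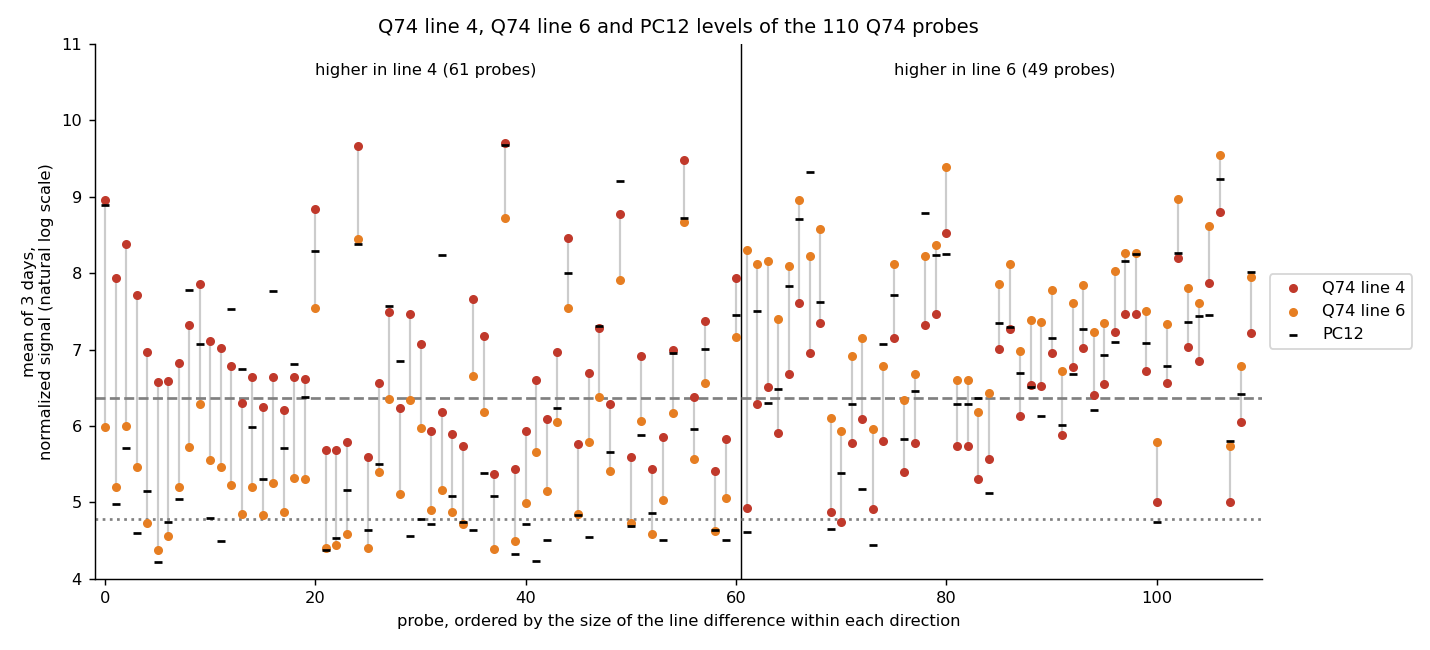
Mean normalized signal over the 3 days (natural log scale) of the 110 Q74 probes in Q74 line 4, Q74 line 6 and PC12, with 61 probes higher in line 4 on the left and 49 higher in line 6 on the right, each ordered by the size of the difference; dotted and dashed lines are the mean median and mean upper quartile of all probes. PC12 lies between the Q74 lines in 56 probes, and 35 probes have both lines above the quartile limit on every day.

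The 15 Q23 probes varied in a narrower range, with Q23 line 1 nearer to PC12 in 4 of them and Q23 line 5 in 11. Line 1 departed alone from PC12 in 0 probes, line 5 in 3 (1 above, 2 below), both lines on the same side in 4 (3 above), and 8 were intermediate. The largest excess of Q23 line 5 was in a probe that read 5.33 and 5.58, 5.47 and 5.40, and 5.70 and 5.47 in Q23 line 1, against 6.40 and 6.64, 6.43 and 6.74, and 6.62 and 6.81 in Q23 line 5. PC12 was higher than both, at 6.87 to 7.11. The largest excess of Q23 line 1 averaged 1.05, in a probe that read 6.79 and 6.97, 6.70 and 6.84, and 6.22 and 6.54 in Q23 line 1. In Q23 line 5 this probe read 5.79 and 5.77, 5.71 and 5.59, and 5.45 and 5.47, and in PC12 it read 6.75 to 7.0. Here line 1 was close to PC12 and line 5 was low.

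A pair of Q23 probes stood above PC12 in both Q23 lines and followed each other at r = 0.9994 over the 15 combinations of culture and day. The brighter of the pair averaged 8.47 in Q23 line 1, 7.59 in Q23 line 5 and 5.72 in PC12, and the dimmer 8.23, 7.38 and 5.55. Whether both probes read one transcript was not tested.

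The 5 probes on both lists did not share one order of lines. In 3 of them Q74 line 4 and Q23 line 1 were the higher lines, with differences of 2.74 and 0.84, 2.26 and 0.84, and 0.86 and 0.87 for Q74 and Q23. In 1 probe Q74 line 6 and Q23 line 5 were higher, by 1.27 and 0.80. In the last one Q74 line 4 was higher by 2.25 and Q23 line 5 by 0.87. This last probe averaged 6.97 in Q74 line 4, 4.73 in Q74 line 6, 6.91 in Q23 line 1, 7.78 in Q23 line 5 and 5.15 in PC12, so that 3 of the 4 lines were above PC12 and Q74 line 6 was below.

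Groups of probes shared one pattern. When probes of one list and one direction were joined at a correlation of at least 0.98 over the 15 combinations of culture and day, 35 probes fell into 13 groups. The largest held 5 probes higher in Q74 line 4, among them both on-off probes. A group of 4 held ILMN_1360802 and 3 further probes, all higher in Q74 line 6, and another group of 4 was likewise higher in Q74 line 6. ILMN_1376130 had 1 partner, at 0.986. The points of these correlations are not independent, since the days of one culture share its level, and no p is given. Probes of one list and direction were also chosen for the same step between lines on every day. High correlations among them are thus partly built in, and the rate among other probes was not counted.

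RNA isolations of one culture also differed persistently in some of these probes. The selection used the means of these isolations, so a wide spread between them can bring a probe over the limit. The shares below therefore carry no test. In 27 of the 120 probes (22.5%), the isolations of at least 1 of the 5 cultures differed by 0.35 or more in the same direction on all 3 days, against 0.915% of all probes and 1.77% of the probes at or above the median signal. By culture this held for 5 of the 120 probes in Q74 line 4, 7 in Q74 line 6, 5 in Q23 line 1, 9 in Q23 line 5 and 8 in PC12, against 105, 24, 10, 34 and 53 of all 22521 probes. Isolations at least 1 apart in any culture and day were found in 6 of the 120 probes (5.00%) and in 0.0888% of all probes.

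Induction changed many of the line-variable probes in the Q74 lines. The change from day 0 was tested with limma, with the line as a block, on the mean of both lines, and adjusted over all 22521 probes. The selection had not used this mean. The error of the fit, however, comes from how the differences between lines of a construct vary over the days, and the selection restricted those differences. The shares of called probes are therefore not independent of the selection, here, for the Q23 probes and for the interaction below. From day 0 to day 5, 41 of the 110 Q74 probes (37.3%) passed an adjusted p of 0.05, against 10.3% of all probes and 21.9% when only probes above the median signal were tested (39 of the 110 then). Of the 41, 22 rose, by a median of 0.42 (1.52-fold, from 0.19 to 1.43), and 19 fell, by a median of 0.51 (to 0.600-fold, from 0.17 to 1.01). Upward calls made up 6.13% and downward calls 4.21% of all probes. Both lines had the same sign of change in 21 of the 22 and 18 of the 19. Of the probes higher in line 4, 12 rose and 13 fell, and of those higher in line 6, 10 rose and 6 fell.

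The largest rise was in a probe that read 5.23 and 5.56 on day 0, 5.19 and 5.43 on day 1, and 6.52 and 6.71 on day 5 in Q74 line 4. In Q74 line 6 it read 6.21 and 6.51, 6.30 and 6.49, and 7.96 and 8.06. The Q23 lines lay between 5.39 and 5.74 and PC12 between 6.22 and 6.39. It rose by 1.43 in the Q74 lines (SE 0.0744, limma adjusted p = 3.0e-09), and line 6 stayed the higher line throughout. The next rose by 1.42 (SE 0.111, limma adjusted p = 3.3e-07), to 7.70 and 7.81 in Q74 line 4 on day 5, against 5.86 and 6.10 on day 0. In Q74 line 6 that probe read 6.08 and 5.85 on day 5 against 5.00 and 4.83 on day 0.

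ILMN_1376130 had the largest fall, 1.01 (SE 0.0674, limma adjusted p = 5.1e-08), and its partner of like pattern fell by 0.98. ILMN_1357041 rose by 0.90 in the mean of the Q74 lines (SE 0.203, limma adjusted p = 0.0073), but the lines were unequal. With the RNA isolations as replicates, which measure technical spread within one culture, it rose by 1.60 in Q74 line 4 (limma adjusted p = 1.0e-07), while Q74 line 6 changed by 0.20 (limma adjusted p = 0.789). Without Q74 line 4 the change was 0.20. ILMN_1360802 changed by 0.08 (limma adjusted p = 0.42) and ILMN_1349449 by -0.04 (limma adjusted p = 0.87), but for ILMN_1349449 the lines had opposite signs. Without Q74 line 6 its change was -0.31, and without Q74 line 4 it was 0.24. Fits without a Q74 line hold a single Q74 line, so no p is given for them. One of the 22 rises, of 0.61, rests on a single array: isolation 1 of Q74 line 4 on day 0 read 5.29 where isolation 2 read 8.23, and the isolations of later days read 7.88 to 8.24.

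By line, with RNA isolations as replicates, 24 of the 110 Q74 probes changed in Q74 line 4 (14 up, 10 down) against 6.55% of all probes (3.77% up, 2.78% down), and 11 in Q74 line 6 (7 up, 4 down) against 1.25% (0.706% up, 0.542% down). Of these, 9 passed in both lines, 15 in line 4 only and 2 in line 6 only. Passing in one line and not in the other does not show that the lines differ, and the difference between the lines was not tested because the selection had used it. Among the 41 probes called in the mean of both lines, the median size of change was 0.430 in line 4 and 0.320 in line 6. When each isolation of each culture was given its own block, an alternative chosen after seeing the data, 45 probes passed in Q74 line 4 and 26 in Q74 line 6. The share of all probes under this alternative was not counted, so the rise in these counts cannot be set against the whole array.

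The size of the difference between the Q74 lines, which by the choice of probes stayed above 0.7, is given as a description. From day 0 to day 5 it changed by less than 0.35 in 91 of 110 probes, widened by at least that in 13 and narrowed in 6. The widest gain was that of ILMN_1357041, where line 4 exceeded line 6 by 2.27, 2.29 and 3.66 on days 0, 1 and 5. The largest narrowing, 1.24, was in the probe with the single low array. From day 0 to day 1 the difference changed by less than 0.35 in 109 of 110 probes. In the Q23 lines it stayed within 0.35 in 15 of 15, changing by -0.20 to 0.16 along its sign.

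**Figure D4:**
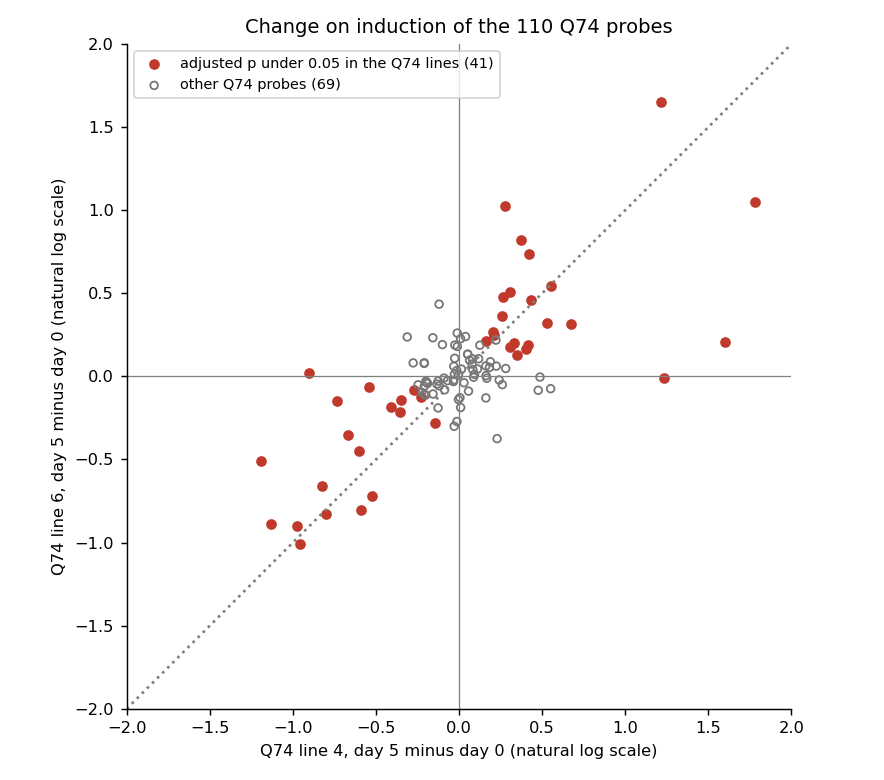
Change from day 0 to day 5 in Q74 line 4 (x axis) and Q74 line 6 (y axis) of the 110 Q74 probes, natural log scale; filled points are the 41 probes that passed an adjusted p of 0.05 in the mean of both lines, and the dotted line marks equal change. Most filled points lie in the quadrants where both lines moved the same way (21 of 22 rises, 18 of 19 falls).

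At day 1 few changes had passed. In the Q74 lines 0 of the 110 Q74 probes passed in limma, against 0.426% of all probes (0.382% up, 0.0444% down). An unadjusted p under 0.05 was reached by 10 of the 110, against 1083 of the 22521 probes. In the Q23 lines 0 probes of the whole array passed on day 1 or day 5 (0% of all probes), with 644 and 824 at an unadjusted p under 0.05 and a smallest adjusted p of 0.156 on day 5. Among these were 8 of the 15 Q23 probes and 13 of the 110 Q74 probes on day 5. In PC12 the changes of all 120 probes from day 0 to day 5 lay between -0.25 and 0.18, against -1.77 to 1.78 in Q74 line 4, -1.53 to 1.65 in Q74 line 6, -0.50 to 0.34 in Q23 line 1 and -0.34 to 0.26 in Q23 line 5.

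Of the 15 probes that separated the Q23 lines, 9 fell in the Q74 lines. In all, 10 of the 15 passed at day 5 in the Q74 lines (66.7%), 1 up and 9 down, against 6.13% up and 4.21% down of all probes. All 15 were brighter than the median probe, and when only probes above the median signal were tested 9 passed, 1 up and 8 down, against 13.1% up and 8.89% down. The 9 fell by a median of 0.74 (to 0.476-fold), from 0.25 to 1.65. Without the 5 probes that also separated the Q74 lines, 7 of 10 fell and 0 rose. Of the 9 that fell, 7 were probes higher in Q23 line 1 and 2 were higher in Q23 line 5. By line, with RNA isolations as replicates, 9 of the 15 passed in Q74 line 4 (2 up, 7 down), against 6.55% of all probes. In Q74 line 6 it was 2 (0 up, 2 down), against 1.25%.

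The largest of these falls was in the probe with the widest excess of Q23 line 1. It fell by 1.65 in the Q74 lines (SE 0.0649, limma adjusted p = 2.5e-10), to 5.17 and 5.14 on day 5 in Q74 line 4, against 7.06 and 6.78 on day 0. In Q74 line 6 it read 5.23 and 5.26 on day 5, against 6.75 and 6.81 on day 0. On day 1 it had already fallen by 0.40 (limma adjusted p = 0.0060), as had the brighter probe of the close pair (0.40, limma adjusted p = 0.030), and these were the 2 Q23 probes that passed on day 1. In the Q23 lines this probe changed by -0.41 from day 0 to day 5 (limma adjusted p = 0.16), and in PC12 by -0.10. On day 5 both Q74 lines thus lay below Q23 line 5, the lower of the Q23 lines.

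The close pair fell as well, by 1.22 and 1.16 (limma adjusted p = 4.4e-08 and 1.3e-07). The brighter of them read 5.43 and 5.42 on day 5 in Q74 line 4, against 7.11 and 6.65 on day 0, and 4.87 and 4.74 on day 5 in Q74 line 6, against 5.99 and 5.56 on day 0. In the Q23 lines it stayed between 7.18 and 8.84, above PC12 at 5.39 to 6.06. Uninduced Q74 line 4 was thus above PC12 for this probe and Q74 line 6 lay within the PC12 range.

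**Figure D5:**
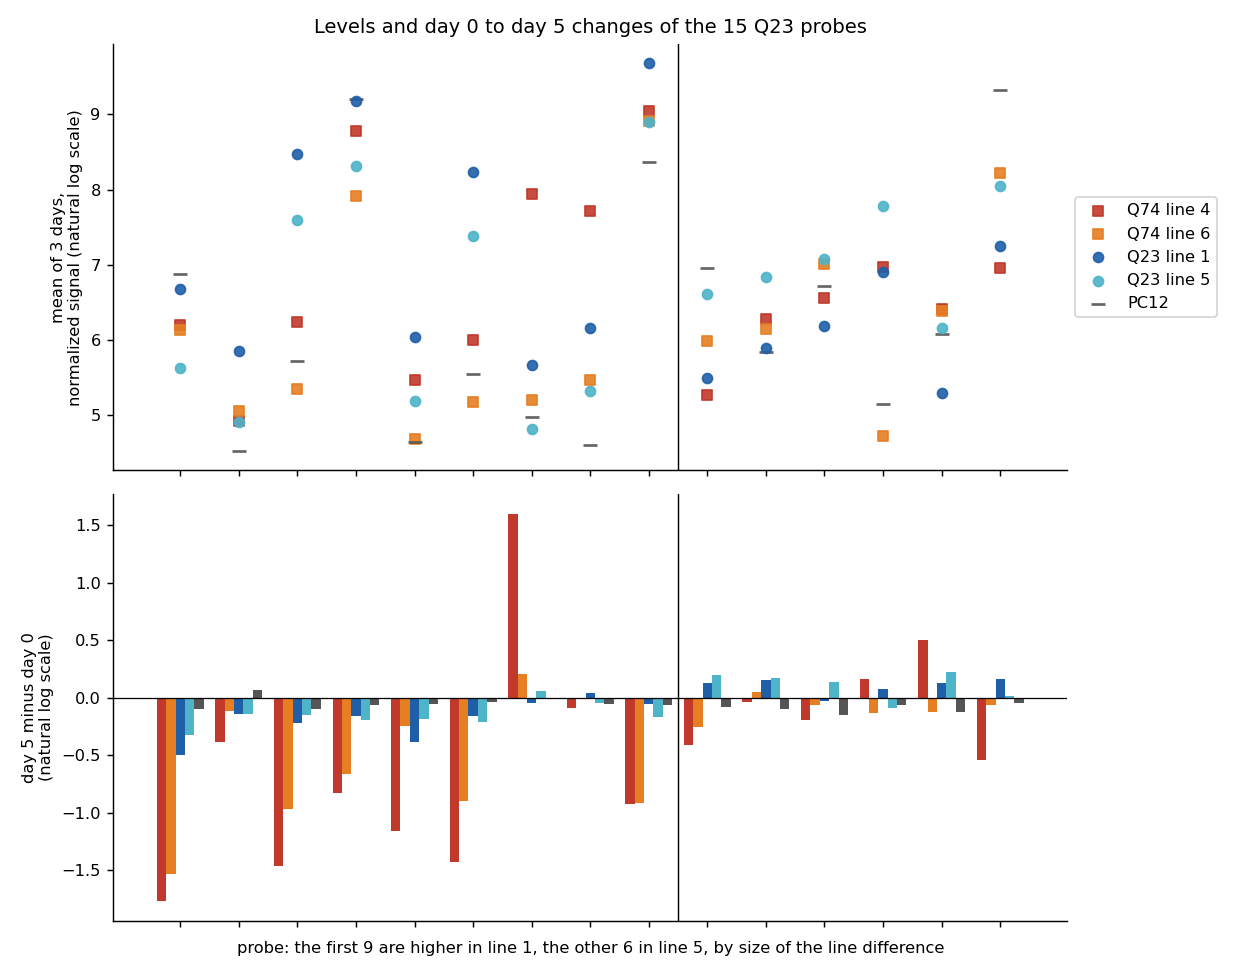
Mean normalized signal over the 3 days (top) and change from day 0 to day 5 (bottom) of the 15 Q23 probes in the 5 cultures, natural log scale; 9 probes higher in Q23 line 1 stand left of the vertical line and 6 higher in Q23 line 5 right of it, and bars are means of 2 RNA isolations, in the order of the key. The 9 probes that fell in the Q74 lines include 7 of the 9 on the left, and PC12 changed by at most 0.25 in size.

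The difference in change between the constructs was tested as an interaction. From day 0 to day 5, 28 of the 120 probes (23.3%) changed differently in the Q74 lines than in the Q23 lines (11 with a larger value in Q74, 17 with a smaller one), against 3.04% of all probes (1.53% larger, 1.51% smaller) and 5.67% of those above the median signal. They comprised 23 of the 110 Q74 probes and 6 of the 15 Q23 probes, with 1 probe on both lists, and all 6 of the Q23 probes had the lower value in Q74. How far the count rests on any one line cannot be told, since a fit without a line leaves a single line of that construct. For ILMN_1376130 the change was lower by 0.86 in Q74 (limma adjusted p = 7.0e-05), and for ILMN_1357041 it was higher by 0.90 (limma adjusted p = 0.115). The call for ILMN_1357041 changed with the fit. With RNA isolations as samples and the isolation number as a replicate block, the limma adjusted p was 0.0479. With a block for each isolation of each line it was 0.021. Without Q74 line 6 the difference was 1.59.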

How the data were processed

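Probe values of 30 Illumina RatRef-12 arrays were used as deposited, 24 from the 4 lines with a construct and 6 from PC12. The deposited signals were exported by the authors from BeadStudio as bead means, left uncorrected for background, and then variance-stabilized (VSN). The deposited values behave as a natural log scale (highest 11.1, the natural log of the largest 16-bit number), but the log base is not stated in the sources used here, nor whether all arrays were normalized together. VSN is close to linear for dim probes. Precision is limited by the small number of arrays and lines.

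Both RNA isolations were averaged for every line and day, and members were taken at a difference of 0.7. Members and lists were chosen with earlier results of these data known. Changes from day 0 were fitted with limma 3.58.1 in R 4.3.3 over all 22521 probes with no filter, with the line as a fixed block (4 residual degrees of freedom) and Benjamini-Hochberg adjustment, two-sided, at 0.05. PC12 was not in that fit. Each culture's change was fitted over all 30 arrays with RNA isolations as replicates (15 residual degrees of freedom). The scripts were tested on simulated data.

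Named probes were the 2 with the largest smallest-day difference in each direction of any list. The probe identifiers matched 0 entries of the reference tables, so the gene lists, marker checks and sequences that had been planned were not used. Counts of probes include 577 that share their values on all arrays with another probe. Alternatives were other normalizations, limits, filters, variance priors, blocks and leaving out isolations or lines.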

Additional observations from a re-analysis of the deposited data

Results flagged for a closer look

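In 28 of the 120 line-variable probes, Q74 and Q23 lines differed in the change to day 5 by the interaction term of the limma fit. Of these, 11 had the higher and 17 the lower value in the Q74 lines. The split changed with the fit: with each isolation as a sample there were 5 higher and 10 lower. The share of all probes in that fit was not counted. ILMN_1376130, the named probe among them, changed by -1.01 in the Q74 lines and by -0.15 in the Q23 lines, a difference of -0.858 (limma adjusted p = 7.0e-05), and the sign of its change was the same in both Q74 lines (-1.13 in line 4, -0.89 in line 6). Its RNA isolations in PC12 stood 1.27 apart on day 0, and PC12 was not part of that fit.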

How the results depend on the processing

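The line-variable lists depended on the limit and on the RNA isolations. With a limit of 0.5 they held 333 (Q74) and 33 (Q23) probes, with a limit of 1 they held 36 and 1, and with each isolation passing on its own 67 and 5. Leaving out one isolation gave 109 to 131 probes for Q74 and 6 to 22 for Q23. Against the lines of the other construct, 5 Q74 probes departed in both lines in place of 11. With on set above the 60th percentile, 11 Q74 probes were on-off and 76 graded, and 13 Q23 probes were graded. For Q23, 1 line departed from PC12 in 5 probes and 5 were intermediate, both with arrays centred on their medians and with limits of 0.5 and 0.25. Leaving out one isolation gave 2 to 6 probes with 1 line departing and 4 to 9 intermediate.

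Leaving out one isolation or one line gave 27 to 50 Q74 probes called at day 5 in the Q74 lines, 0 to 1 at day 1, and 6 to 11 Q23 probes at day 5. In the Q23 lines it gave 0 to 1 at day 5, with 1 also under a variance trend with a robust prior. The interaction gave 9 to 48, and 15 with each isolation as a sample. The shares of all probes called in these refits were not counted, so these counts cannot be set against the whole array. They do not show a change particular to the line-variable probes. The line that is left out changes the error estimate as well as the data. With either Q23 line left out, the change of ILMN_1357041 in Q74 (0.90) had a limma adjusted p of 0.0555. With all lines kept, a variance trend and a robust prior gave it a limma adjusted p of 0.297.

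Signs turned in 2 named probes that had not passed. The change of ILMN_1349449 was 0.237 in Q74 and 0.168 in Q74 minus Q23 without Q74 line 4, against -0.312 and -0.381 when line 6 was left out. That of ILMN_1360802 was -0.0105 in Q74 and -0.0861 in Q74 minus Q23 without Q74 line 6, 0.180 and 0.105 when line 4 was left out, and -0.0373 in Q74 minus Q23 without replicate 1.

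Deviations by RNA isolation number were shared across cultures in part. They correlated at -0.300 to 0.572 between groups of different cultures (median 0.123), and 52 of 90 such pairs were over 0.1. With isolation number as a replicate block, 34 Q74 probes were called at day 5 in the Q74 lines, 0 at day 1, 0 in the Q23 lines and 22 in the interaction, and by line 30 in Q74 line 4 and 13 in Q74 line 6. With each isolation of each line as its own replicate block, chosen after seeing the data, these were 39, 1, 1, 28, 45 and 26, with 1 in Q23 line 1. The shares of all probes under either block were not counted.

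Of 302 comparisons of a result with an alternative, 247 kept their direction and their side of the threshold, or a count within 1.5 times. The cause of the others was not tested. Depth is not given by these files, and without detection p-values probes under the median signal have no stated limit of detection.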

Other observations

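Days of one culture shared the deviations of their RNA isolations more than different cultures did. The correlation of these deviations over all probes was positive for all 3 pairs of days in Q74 line 4 (0.359 to 0.499), Q74 line 6 (0.260 to 0.329), Q23 line 5 (0.310 to 0.357) and PC12 (0.398 to 0.498). In Q23 line 1 it ranged from -0.314 to 0.529, with 1 of 3 pairs over 0.1. The median was 0.357 over the 15 pairs within a culture and 0.123 over the 90 pairs between cultures. These are correlations across probes, which are not independent replicates, and the points share arrays.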
